A study of Mus musculus with 4 samples.

Results

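Cd274, Pdcd1 and Pdcd1lg2 encode PD-L1, its receptor PD-1 and the other ligand of that receptor, PD-L2. They were chosen by name from a table of 16218 genes, and all 3 were listed and tested. The table holds bulk RNA-seq counts from thyroids of mice of the NOD.H-2h4 strain, which is inclined to thyroid autoimmunity. The anti-PD-L1 group comprised 2 mice injected 3 times a week for 2 weeks with a monoclonal antibody against PD-L1. The IgG group comprised 2 mice given an isotype control IgG on the same schedule. The labels give no age, no other allele and no count of pooled animals, and they give each library its own antibody clone string as a batch. Within a group these strings differ only in their last digit, so it is uncertain that the field records a batch, and it could not be told apart from library. The question put to the series was which thyroid genes and pathways differ when PD-L1 is blocked.

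PD-1 is an inhibitory receptor that T cells display after activation and keep under chronic stimulation. When PD-L1 or PD-L2 binds it, phosphatases recruited to its cytoplasmic tail dampen signalling from the T cell receptor and from CD28. PD-L1 is made by many cell types, among them epithelium, endothelium and myeloid cells, and is induced by interferon gamma, whereas PD-L2 is made mainly by macrophages and dendritic cells and is also induced by interleukin-4. Blocking PD-L1 leaves both ligand genes and the receptor gene intact, so their RNA levels do not check the labels.

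The windows just before the starts of the 3 genes are shown because the genes are compared by level below and carry different sequence features there. They are reference sequence from RefSeq (GRCm38.p6), on the strand of the gene, and all 3 symbols were found in the RefSeq table. Capitals mark matches to the NFAT core GGAAA in all windows, in Pdcd1 as its reverse complement, and to the STAT6 element, TTC and GAA spaced by 4 bases, in Pdcd1lg2.
Pdcd1, chr1:94052554-94052803, minus strand: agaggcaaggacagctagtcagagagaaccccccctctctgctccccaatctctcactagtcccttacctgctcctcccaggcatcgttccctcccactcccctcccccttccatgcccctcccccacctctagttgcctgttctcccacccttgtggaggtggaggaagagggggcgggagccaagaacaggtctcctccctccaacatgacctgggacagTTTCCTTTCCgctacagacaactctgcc
Cd274, chr19:29367309-29367437, plus strand: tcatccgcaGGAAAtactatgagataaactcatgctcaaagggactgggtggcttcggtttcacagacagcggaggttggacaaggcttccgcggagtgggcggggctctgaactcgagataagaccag
Pdcd1lg2, chr19:29410669-29410918, plus strand: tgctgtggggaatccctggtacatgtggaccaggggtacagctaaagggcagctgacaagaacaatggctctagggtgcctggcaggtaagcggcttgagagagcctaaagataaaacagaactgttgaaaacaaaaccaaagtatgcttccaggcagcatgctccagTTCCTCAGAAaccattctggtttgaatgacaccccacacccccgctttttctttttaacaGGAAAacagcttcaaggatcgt

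The search covered the 250 bases before each start on both strands, of which the 129 nearest the start are shown for Cd274, since the rest holds a UTR of its neighbour Plgrkt. Much of the shown Cd274 window, including its marked GGAAA, still lies within the annotated span of Plgrkt on the other strand, and the window ends at the RefSeq start of Cd274, which lies before the GENCODE start given below. The Pdcd1 window held 2 NFAT cores, the closer one 19 to 23 bases before the start, and the Cd274 and Pdcd1lg2 windows held 1 each. GGAAA occurred in 55.6% of 32851 promoter windows of the same length, so most windows hold it. The STAT6 element of Pdcd1lg2, 73 to 82 bases before its start, is of a kind present in 5.85% of windows. No window of the 3 held the interferon regulatory factor element, a pair of GAAA runs spaced by 2 bases (2.98% of all windows), or the AP-1 element TGANTCA (6.75%). These letters are matches only, and nothing was measured at these sites.

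The libraries held 75591923 to 79663374.5 counts, so 3 counts corresponded to 0.0370 to 0.0408 CPM. Thyroid identity was checked with 13 follicular genes, all of them listed. Tg, the gene of thyroglobulin, took 4.34% and 16.9% of all counts in anti-PD-L1 replicates 1 and 2, against 15.3% and 14.6% in the IgG pair. Anti-PD-L1 replicate 1 also stood apart in Xist (1.40 CPM, where the others had 67.7 to 72.7 CPM) and in the Y-linked gene Ddx3y (62.6 CPM, against 0.350 to 0.790 CPM), the RNA pattern of a male mouse where the others had that of a female. Skeletal muscle and mucosal gland genes were present in all libraries, and the gland list summed to 34387 and 10599 CPM in anti-PD-L1 and 3956 and 20732 CPM in IgG. The fold changes of the 3 genes are therefore also given without single libraries where that moves them, and those of other genes were not refitted in this way. Without anti-PD-L1 replicate 1 the log2 fold changes (anti-PD-L1 minus IgG) were 3.52 for Pdcd1, 0.68 for Cd274 and 2.02 for Pdcd1lg2. With all libraries they were 3.60, 0.89 and 2.27.

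Pdcd1, the receptor gene, had the largest difference of the 3. It lies on the minus strand of chromosome 1 from 94038305 to 94052553 (GRCm38), and no exon of another annotated gene overlaps its exons. It had 1016 and 1012 counts in the anti-PD-L1 libraries, against 49 and 119 counts in the IgG libraries. In CPM, normalised by the trimmed mean of M values (TMM), these are 13.8 and 12.5 in anti-PD-L1 and 0.613 and 1.56 in IgG. The 2 anti-PD-L1 libraries were close to each other and the lower of them was 7.99-fold above the higher IgG library. The group means were 13.2 ± 0.945 CPM in anti-PD-L1 and 1.09 ± 0.672 CPM in IgG (SD, n = 2 each).

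The log2 fold change of Pdcd1, anti-PD-L1 minus IgG, was 3.60 ± 0.52 (SE), a 12.1-fold difference. It ranked 20 by fold change and 136 by p among 16217 tested genes. With edgeR's quasi-likelihood test and Benjamini-Hochberg adjustment over all genes it did not pass the threshold of 0.05 (adjusted p = 0.200, unadjusted p = 0.00168), nor did any other gene in either direction (0% called). At an unadjusted p under 0.05, edgeR had 4.96% of genes higher and 1.1% lower. DESeq2 called Pdcd1 higher (DESeq2 adjusted p = 1.01e-09), as it did 2.93% of all genes, while limma voom did not (limma adjusted p = 0.158, 0% called).

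**Figure D1:**
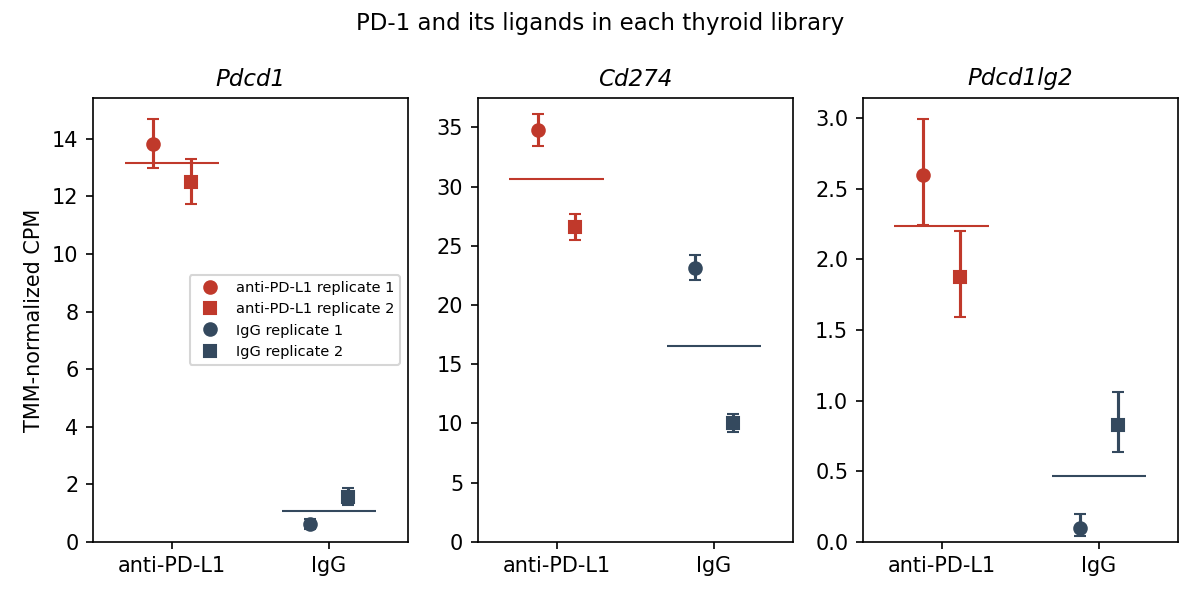
TMM-normalised CPM of Pdcd1, Cd274 and Pdcd1lg2 in each library, with linear axes that start at 0 and differ between panels. Points are libraries, error bars their 95% exact (Clopper-Pearson) counting intervals and horizontal lines the group means. The anti-PD-L1 points lie above the IgG points in each panel. The ratio of the lower anti-PD-L1 point to the higher IgG point is smallest for Cd274 (1.15-fold).

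Cd274, the gene of PD-L1, lies on the plus strand of chromosome 19 from 29367455 to 29388095. It was the most abundant of the 3 by count, with 2554 and 2152 counts in anti-PD-L1 and 1848 and 763 counts in IgG. These are 34.8 and 26.6 CPM in anti-PD-L1, against 23.1 and 10.0 CPM in IgG. The groups did not overlap, but the lower anti-PD-L1 library was only 1.15-fold above the higher IgG library, while the IgG libraries differed 2.31-fold from each other. An antisense RNA gene on the opposite strand overlaps 511 exonic bases of Cd274, and the strand setting of the counting is not given in the sources used here, so reads of the antisense gene could be among its counts.

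The Cd274 log2 fold change was 0.89 ± 0.45 (SE, n = 2 each) and did not pass with edgeR (adjusted p = 1.00), DESeq2 (adjusted p = 0.817) or limma voom (adjusted p = 0.931). Its value depended on which IgG library was present, at 1.59 ± 0.35 without IgG replicate 1 and 0.41 ± 0.34 without IgG replicate 2. IgG replicate 1, the library with more Cd274, also had the most RNA of squamous epithelial genes. Summed over 9 listed squamous genes, the level was 5848 and 109 CPM in anti-PD-L1 and 12973 and 3432 CPM in IgG. The part of squamous tissue in the Cd274 level was not tested, and anti-PD-L1 replicate 2 had 26.6 CPM of Cd274 with the lowest squamous sum of the 4 libraries.

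Pdcd1lg2, the gene of PD-L2, starts 43.5 kb from the Cd274 start on the same strand (29410919 to 29471161). It was the rarest, with 191 and 152 counts in anti-PD-L1 and 8 and 63 counts in IgG, or 2.60 and 1.88 CPM in anti-PD-L1 against 0.100 and 0.827 CPM in IgG. The 95% exact (Clopper-Pearson) interval of the lowest value ran from 0.0432 to 0.197 CPM and that of IgG replicate 2 from 0.636 to 1.06 CPM, so the IgG libraries differed 8.27-fold, by more than their counting error. These intervals cover counting error only. Every listed gene reached at least 100 counts in 1 library, and Pdcd1lg2 did so in the anti-PD-L1 libraries alone, so its presence in the table rests on the group where it is higher. The log2 fold change was 2.27 ± 0.96 (SE, n = 2 each), with an edgeR adjusted p of 0.927, a DESeq2 adjusted p of 0.386 and a limma voom adjusted p of 0.574. Without IgG replicate 1 it was 1.41 ± 0.49, and without IgG replicate 2 it was 4.46 ± 0.62.

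For all 3 genes the groups did not overlap and anti-PD-L1 was the higher, which held for 16.5% of all tested genes, while 13.1% had the reverse. Of the 3, Pdcd1lg2 was listed through the anti-PD-L1 libraries alone, as were 336 of the 16217 tested genes. An exact two-sided permutation test of 2 against 2 libraries gave p = 0.333 for each, the smallest p that this design allows. In the IgG group the genes did not move together. Replicate 1 had more Cd274 than replicate 2, and replicate 2 had more Pdcd1 and Pdcd1lg2 than replicate 1.

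Per kilobase of annotated exon, which allows levels to be compared between genes, Cd274 was the highest in every library. It had 9.60 and 7.33 CPM per kb in anti-PD-L1 and 6.38 and 2.77 in IgG. Pdcd1 had 7.16 and 6.47 CPM per kb in anti-PD-L1 and 0.318 and 0.810 in IgG. Pdcd1lg2 had 1.33 and 0.957 CPM per kb in anti-PD-L1 and 0.0510 and 0.422 in IgG. The order Cd274, Pdcd1, Pdcd1lg2 thus held in all 4 libraries. For each 100 units of Cd274 per kb there were 74.7 and 88.3 of Pdcd1 in anti-PD-L1, against 4.98 and 29.3 in IgG (exact permutation p = 0.333). PD-L2 RNA made up 12.1% and 11.5% of the summed ligand level per kb in anti-PD-L1, against 0.793% and 13.2% in IgG, so that share overlapped between the groups. Which isoforms are present was not measured, and the exon lengths are unions over all annotated transcripts.

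Markers of T cells, macrophages and leukocytes in general were higher in the same comparison, and in bulk RNA more cells of a type and more RNA per cell cannot be told apart. Of 20 T cell genes, 19 were tested, and in all 19 the groups did not overlap and anti-PD-L1 was the higher, with a median log2 fold change of 1.85, beside 16.5% and a median of 0.0002 over all genes. Of these 19, Cd247, Ubash3a and Sh2d1a were listed through the anti-PD-L1 libraries alone. The list summed to 233 and 243 CPM in anti-PD-L1 and 47.8 and 90.4 CPM in IgG. In the macrophage list, 17 of 20 genes did not overlap in that direction (median 1.91), and the sums were 1367 and 1314 CPM in anti-PD-L1 and 410 and 466 CPM in IgG. The 14 genes of the pan-leukocyte list had a median of 1.92, and Ptprc, the gene of CD45, had 99.1 and 112 CPM in anti-PD-L1 against 11.4 and 42.6 CPM in IgG. edgeR called none of these list genes, and DESeq2 called 11 T cell, 14 macrophage and 10 pan-leukocyte genes higher, beside 2.93% of all genes. The B cell list differed in its values, with 9 of 10 genes that overlapped between the groups, a median of 0.30 and none called by edgeR or DESeq2. It summed to 159.8 and 82.2 CPM in anti-PD-L1 and 45.1 and 134.6 CPM in IgG. Lists of follicular and endothelial genes had medians of 0.034 and −0.11.

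Set against T cell genes of the same library, Pdcd1 was still higher in both anti-PD-L1 libraries. For each 100 counts of the geometric mean of the 19 T cell genes there were 146 and 131 counts of Pdcd1 in anti-PD-L1, against 43.5 and 43.0 in IgG. On this mean the IgG libraries had nearly the same ratio although their T cell level differed. Their ratios to single T cell genes could differ in either direction. Against Cd5 they were 10.1 and 21.9 in IgG replicates 1 and 2, and against Cd2 they were 120 and 27.5. On the mean of the list the groups did not overlap (exact permutation p = 0.333). On this scale 0.678% of all genes had anti-PD-L1 wholly above IgG and 96.2% wholly below. Per 100 counts of Cd3e, a chain of the T cell receptor complex, there were 139 and 104 counts of Pdcd1 in anti-PD-L1, against 52.7 and 51.5 in IgG. For the coreceptor gene Cd4 the same ratio was 54.2 and 42.4 in anti-PD-L1, against 18.4 and 17.7 in IgG. For Cd8a the groups were closer, at 86.2 and 107 in anti-PD-L1 and 79.0 and 54.8 in IgG. The ratio was wholly higher in anti-PD-L1 for 17 of the 19 T cell genes and overlapped for Cd2 and Sh2d1a, where IgG replicate 1 had the highest ratio. It was also wholly higher for 99.5% of all other genes and wholly lower for 0.0432%.

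**Figure D2:**
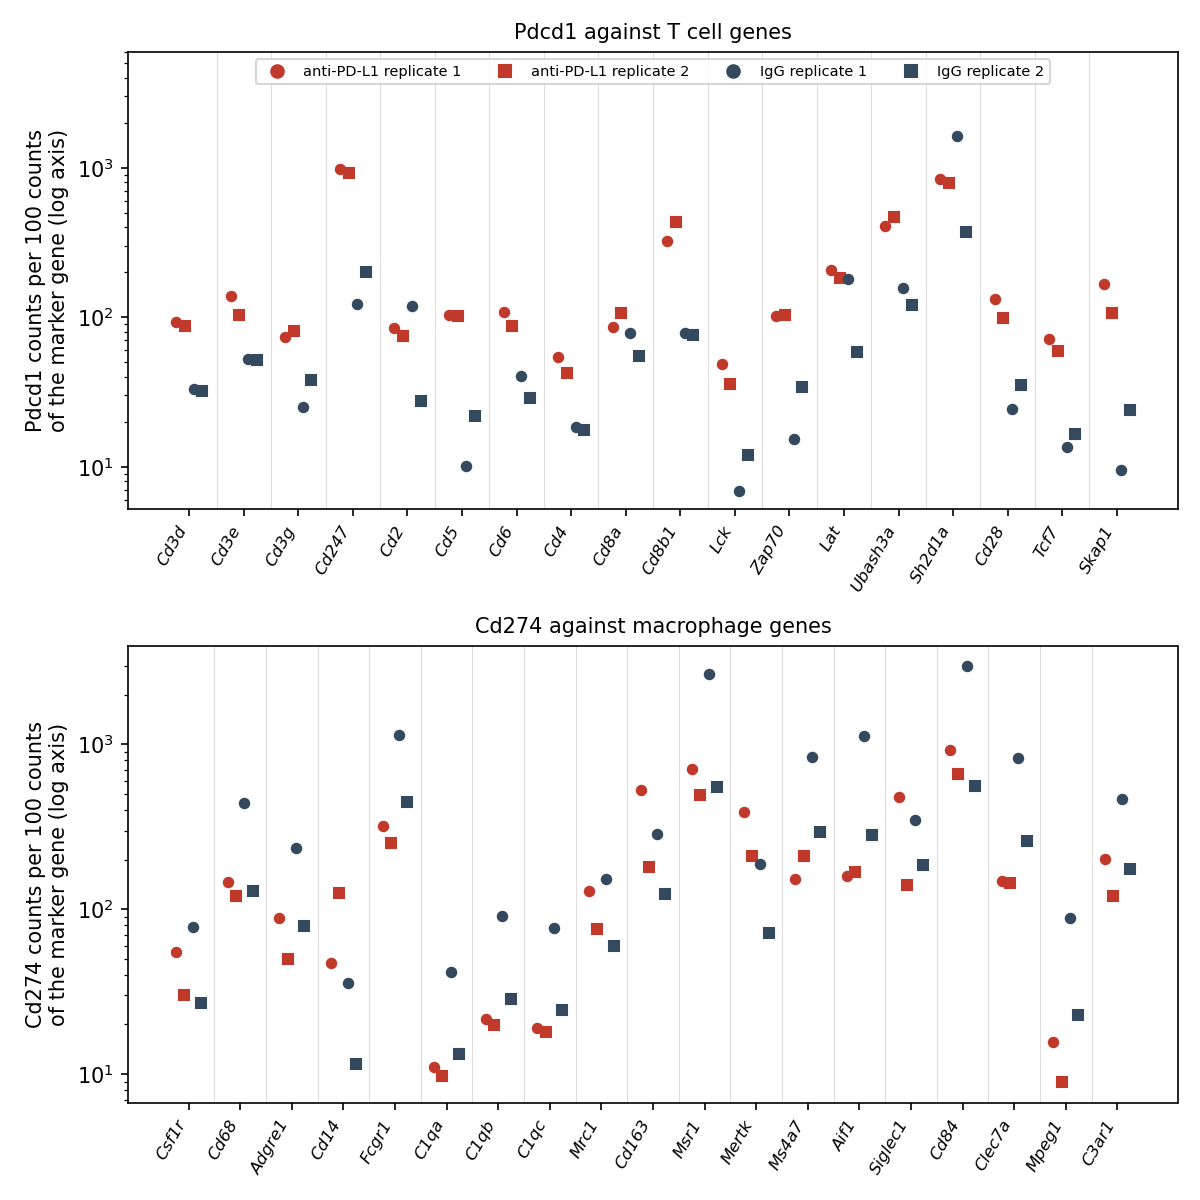
Counts of Pdcd1 per 100 counts of each of 18 genes of the T cell list (top) and of Cd274 per 100 counts of each of 19 genes of the macrophage list (bottom), on log axes, with 1 point per library. The anti-PD-L1 points lie above the IgG points for 16 of the genes in the top panel, while in the bottom panel the libraries overlap for 9 genes, lie lower in anti-PD-L1 for 8 and higher for 2.

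Fitted with edgeR on libraries scaled by the T cell genes, Pdcd1 had a log2 fold change of 1.68 ± 0.96 (SE, n = 2 each), which did not pass (edgeR adjusted p = 0.0860). In that fit 0.0617% of genes were called higher and 83.4% lower. DESeq2 with the same scaling called Pdcd1 higher (adjusted p = 0.0128, with 0.142% of genes called higher and 92.7% lower). With the summed list as scale edgeR also called it higher (adjusted p = 0.0129). The share of all genes called in that fit was not counted, so this call cannot be set against it. Scaled by macrophage genes, the Pdcd1 value was 2.06 ± 0.44 and passed (edgeR adjusted p = 1.34e-05, where 0.721% of genes were called higher and 93% lower). Per 100 counts of the macrophage level there were 45.0 and 39.8 counts of Pdcd1 in anti-PD-L1, against 6.80 and 13.5 in IgG, on a scale where 1.25% of genes had anti-PD-L1 wholly above IgG and 94.9% wholly below. Scaled by pan-leukocyte genes it was 1.69 ± 1.11 and did not pass (edgeR adjusted p = 0.139, with 0% called higher and 0.173% lower). Per 100 counts of the pan-leukocyte level there were 23.7 and 21.3 in anti-PD-L1, against 7.66 and 6.29 in IgG, where 0.623% of genes lay wholly above and 95.5% wholly below. DESeq2 scaled by macrophage genes called 0.61% of genes higher and 92.5% lower, and scaled by pan-leukocyte genes 0.129% and 91.9%. All genes of a library share the error of such a scale, which these fits treat as separate for each gene. Under edgeR scaled by geometric means of the lists, the median prior degrees of freedom were infinite, against 2.42 with TMM scaling. This prior is the weight given to the spread shared across genes, so for most genes the SE rested on that spread. The shared spread includes the error of the scale and need not match that of Pdcd1 itself. Such p-values may be too small or too large for a given gene, and carry little weight with 2 libraries per group.

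The Cd274 level relative to leukocyte genes overlapped between the groups. For each 100 counts of the macrophage level there were 113 and 84.6 counts of Cd274 in anti-PD-L1, against 257 and 86.6 in IgG. The values overlapped (exact permutation p = 0.667), with IgG replicate 1 above the other 3 libraries. The edgeR fit scaled by macrophage genes gave −0.79 ± 0.35 (SE, n = 2 each, adjusted p = 0.0255), which passed, in a fit that called 93% of all genes lower. That call was lost with DESeq2 (−0.79 ± 0.53), with the summed list (−0.77 ± 0.49) and with the replicate number as a block (−0.61 ± 0.35). It stood without the 3 most abundant genes of the list (−0.75 ± 0.37, edgeR adjusted p = 0.0461), where the share of all genes called was not counted. The value was −1.02 ± 0.54 and −0.60 ± 0.53 without anti-PD-L1 replicates 1 and 2. It was 0.19 ± 0.34 and −1.37 ± 0.32 without IgG replicates 1 and 2. Per 100 counts of Csf1r, the receptor gene of macrophage growth factor, Cd274 had 54.8 and 30.3 in anti-PD-L1 and 77.7 and 27.1 in IgG. Against each of the 20 macrophage genes, Cd274 was lower in both anti-PD-L1 libraries for 8, among them C1qa, C1qb and C1qc, and higher for 3, among them Cd14 and Mertk. The genes named for this split were picked with their values known. Over all other genes the Cd274 ratio was lower for 1.05% and higher for 68.4%.

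On the T cell scale the Cd274 values also overlapped, at 367 and 279 counts per 100 in anti-PD-L1 and 1642 and 276 in IgG, with a fitted log2 fold change of −1.57 ± 0.94 (edgeR adjusted p = 0.103). Without IgG replicate 1 it was 0.23 ± 0.34, and without IgG replicate 2 it was −2.34 ± 0.32. On the pan-leukocyte scale it was −1.65 ± 1.10 (edgeR adjusted p = 0.147), with 0.38 ± 0.34 without IgG replicate 1 and −2.46 ± 0.32 without IgG replicate 2. Against endothelial genes, another known source of PD-L1, there were 156 and 86.7 counts of Cd274 per 100 in anti-PD-L1 and 74.1 and 36.0 in IgG. These did not overlap (exact permutation p = 0.333), and the share of all genes that did so on this scale was not counted. Against the 12 endothelial genes singly, the ratio was wholly higher in anti-PD-L1 for 9 and overlapped for 3. Against follicular genes there were 34.0 and 11.6 in anti-PD-L1 and 12.7 and 7.96 in IgG, which overlapped.

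Pdcd1lg2 overlapped between the groups on all leukocyte scales. For each 100 counts of the macrophage level there were 8.47 and 5.98 counts of Pdcd1lg2 in anti-PD-L1, against 1.11 and 7.15 in IgG, where IgG replicate 1 was far below the other 3 libraries. The fitted value was 0.78 ± 0.56 (SE, n = 2 each, edgeR adjusted p = 0.169). It was 0.014 ± 0.48 without IgG replicate 1. Without IgG replicate 2 it was 2.69 ± 0.64, where the lone IgG library had 8 counts of Pdcd1lg2. Set against the dendritic cell level, the ratio per 100 counts was 31.4 and 19.9 in anti-PD-L1 and 5.33 and 23.5 in IgG. Against single macrophage genes, Pdcd1lg2 was wholly higher in anti-PD-L1 for 6 of 20 and overlapped for 14, where over all other genes 96.2% were wholly higher and 0.0802% wholly lower. On the T cell scale the fitted value was 0.62 ± 0.96 (edgeR adjusted p = 0.531) and on the pan-leukocyte scale 0.70 ± 1.08 (edgeR adjusted p = 0.530). Without IgG replicate 1 these were 0.050 ± 0.48 and 0.20 ± 0.48. Without IgG replicate 2 they were 1.73 ± 0.66 and 1.61 ± 0.66. On the T cell scale the value without anti-PD-L1 replicate 1 was 0.37 ± 1.84, and on the pan-leukocyte scale it was 0.46 ± 2.15.

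**Figure D3:**
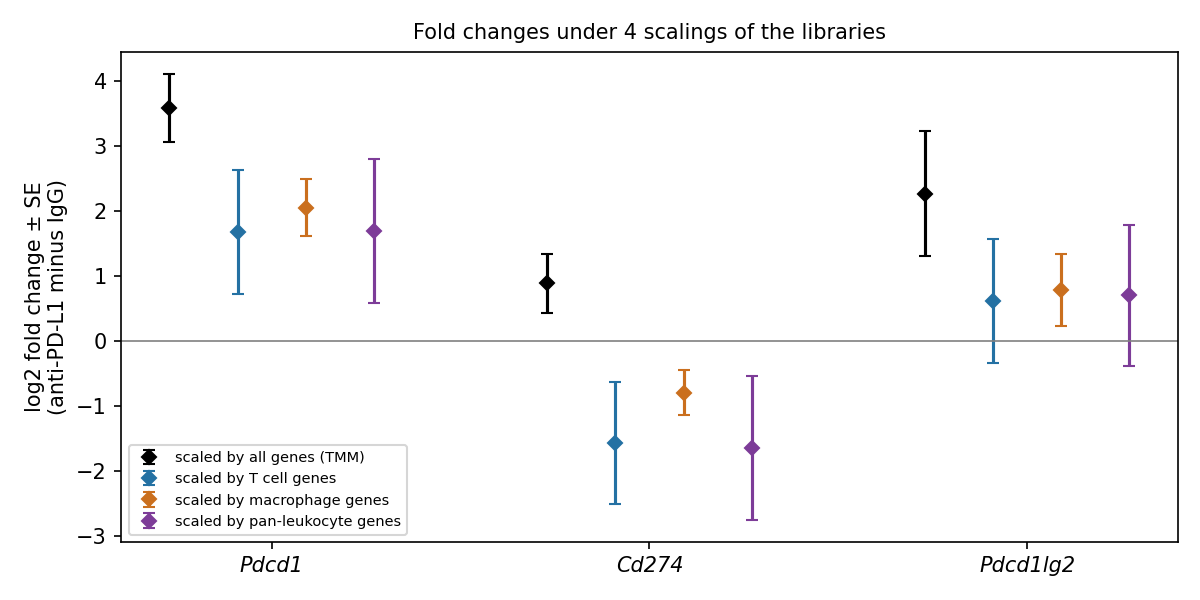
Log2 fold change (anti-PD-L1 minus IgG) of each gene, fitted with edgeR on libraries scaled by all genes (TMM) and by T cell, macrophage and pan-leukocyte genes, with error bars of 1 SE. Pdcd1 is above 0 on every scale (1.68 to 3.60), Cd274 is 0.89 on the TMM scale and below 0 on the others, and Pdcd1lg2 is within 1.5 SE of 0 on the leukocyte scales.

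Among known partners of the ligands, Cd80, which encodes a B7 protein that also binds PD-L1, is not analysed here. Rgmb, which encodes a coreceptor that binds PD-L2, had 19.8 and 20.9 CPM in anti-PD-L1 and 22.5 and 23.8 CPM in IgG. Cmtm6, whose product protects PD-L1 from degradation, had 106 and 153 CPM in anti-PD-L1 and 135 and 132 CPM in IgG, and its relative Cmtm4 75.3 and 138 CPM in anti-PD-L1 and 128 and 132 CPM in IgG. None of the 3 passed, and their log2 fold changes ran from −0.28 to −0.045.

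Of 12 tested genes on the route from interferon gamma to PD-L1, 11 had non-overlapping groups with anti-PD-L1 the higher (16.5% of all genes), with a median log2 fold change of 0.68. edgeR called none and DESeq2 called 5 (2.93% of all genes). Socs1 was listed through the anti-PD-L1 libraries alone. Ifng, the cytokine gene itself, had 2.84 and 2.95 CPM in anti-PD-L1 and 1.15 and 1.35 CPM in IgG. Irf1, a transcription factor gene induced by interferon gamma, whose product acts on the Cd274 promoter, had 89.0 and 78.1 CPM in anti-PD-L1 and 35.1 and 29.7 CPM in IgG. Relative to their level, both genes had a smaller spread within groups than Cd274. The receptor gene Ifngr1 and the kinase gene Jak2 had smaller log2 fold changes, 0.50 ± 0.14 and 0.33 ± 0.20, and the feedback inhibitor Socs1 and the class I transactivator Nlrc5 had 1.45 ± 0.35 and 1.87 ± 0.21.

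On the interleukin-4 route to PD-L2, 6 of 8 genes were tested, and Il4 and Il13 are not analysed here. The median was 0.31, with 3 genes wholly higher in anti-PD-L1 (16.5% of all genes) and 3 that overlapped, and neither edgeR nor DESeq2 called any. Il4ra, the receptor chain, had 49.4 and 65.9 CPM in anti-PD-L1 and 36.2 and 45.2 CPM in IgG, and Stat6 had 72.2 and 78.8 CPM in anti-PD-L1 and 72.2 and 66.4 CPM in IgG. The 2 of smallest p were Jak3 and Il2rg, which encode a kinase and a receptor chain shared by several lymphocyte cytokines, with log2 fold changes of 0.96 ± 0.27 and 1.72 ± 0.58.

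Downstream of PD-1, 11 of 15 proximal signalling genes had non-overlapping groups with anti-PD-L1 the higher (median 1.38, beside 16.5% of all genes), edgeR called none and DESeq2 called 7 (2.93% of all genes). Cd247 was listed through the anti-PD-L1 libraries alone. Ptpn11, the gene of the phosphatase SHP2 that PD-1 recruits, is expressed by most cells and had 178 and 182 CPM in anti-PD-L1 and 181 and 183 CPM in IgG. Ptpn6, the gene of the leukocyte phosphatase SHP1, had 54.2 and 55.9 CPM in anti-PD-L1 and 16.1 and 28.8 CPM in IgG (DESeq2 adjusted p = 0.0218). The kinase genes Lck and Zap70, targets of PD-1 inhibition, had log2 fold changes of 1.53 ± 0.26 and 1.58 ± 0.20, and the adaptor gene Lcp2 1.81 ± 0.25. Lck, Zap70, Cd247, Cd28 and Lat are among the genes also in the T cell list, so the 2 lists are not separate evidence.

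Of 16 transcription factor genes known to act on Pdcd1, 9 did not overlap in the higher direction (median 0.53, beside 16.5% of all genes), edgeR called none and DESeq2 called 5 (2.93% of all genes). Eomes was listed through the anti-PD-L1 libraries alone. Tox, a factor of chronically stimulated T cells, had 7.46 and 6.50 CPM in anti-PD-L1 and 2.10 and 3.40 CPM in IgG. The T-box genes Tbx21 and Eomes had log2 fold changes of 1.80 ± 0.43 and 1.95 ± 0.43. Nfatc1, Nr4a1 and Prdm1, which other cells of the tissue also express, overlapped between groups, with Nr4a1 at 69.2 and 31.3 CPM in anti-PD-L1 and 27.5 and 69.8 CPM in IgG. Batf had a log2 fold change of 0.39 ± 0.26, and Nfatc2 and Irf9 had 0.79 ± 0.17 and 0.87 ± 0.20.

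Among relatives of PD-1 and of its ligands, 7 of 9 tested genes of the CD28 and B7 families were wholly higher in anti-PD-L1 (16.5% of all genes), with a median of 1.73, and DESeq2 called 6 higher (2.93% of all genes) and edgeR none. Ctla4, the other main inhibitory receptor gene of this family, had 5.36 and 5.06 CPM in anti-PD-L1 and 0.325 and 0.945 CPM in IgG (log2 fold change 3.04 ± 0.57, edgeR adjusted p = 0.273). It was listed through the anti-PD-L1 libraries alone. The costimulatory receptor gene Icos had 11.2 and 11.2 CPM in anti-PD-L1 and 0.438 and 2.47 CPM in IgG, and Cd28 10.4 and 12.7 CPM in anti-PD-L1 and 2.51 and 4.44 CPM in IgG. Of the B7 ligand genes, Cd86, made by antigen-presenting cells, had 15.7 and 10.3 CPM in anti-PD-L1 and 1.94 and 3.22 CPM in IgG, while Cd276 had 17.8 and 19.5 CPM in anti-PD-L1 and 22.4 and 17.7 CPM in IgG. Icosl and Vsir, which encode another ligand and the receptor VISTA, had log2 fold changes of 0.64 ± 0.18 and 1.20 ± 0.21.

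**Figure D4:**
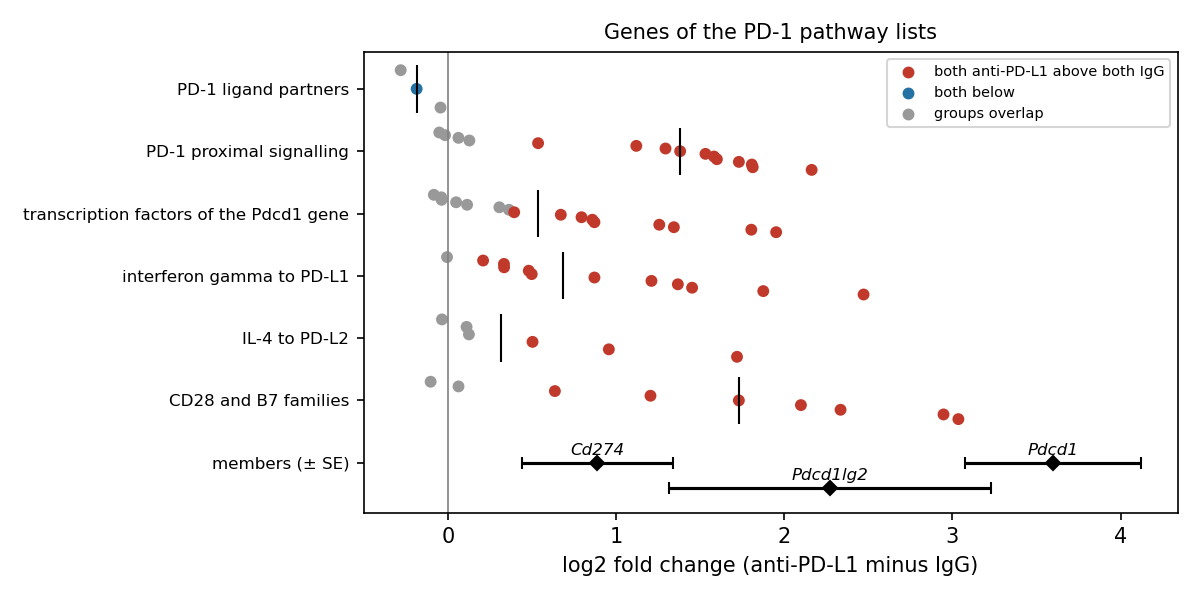
Log2 fold change (anti-PD-L1 minus IgG) of every tested gene of 6 lists around PD-1, coloured by whether the anti-PD-L1 pair lies above, below or across the IgG pair; vertical bars are list medians and the bottom rows give the 3 genes ± SE. The Pdcd1 value of 3.60 lies above every listed gene, whose highest is Ctla4 at 3.04, and the partner genes Rgmb, Cmtm6 and Cmtm4 lie at or below 0.

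Apart from Gal3st2, the other listed chromosomal neighbours gave smaller values than Pdcd1, Cd274 and Pdcd1lg2. Cd274 and Plgrkt, which encodes a plasminogen receptor, start 65 bases apart on opposite strands. Plgrkt had 76.6 and 24.6 CPM in anti-PD-L1 and 39.6 and 49.9 CPM in IgG, a log2 fold change of 0.18 ± 0.57 with groups that overlapped. Of the other listed genes within 250 kb of Cd274, apart from Pdcd1lg2, Jak2, Insl6 and Rcl1 had values of 0.33 ± 0.20, 0.43 ± 0.30 and 0.17 ± 0.16, and Ric1 and Ermp1 −0.0046 ± 0.14 and −0.22 ± 0.34. Mlana and 9930021J03Rik, within 250 kb of Pdcd1lg2, had −0.24 ± 0.41 and −0.11 ± 0.15. Around Pdcd1, 4 of the 5 listed genes (Atg4b, Dtymk, Ing5 and D2hgdh) lay between −0.16 and 0.14. The fifth, Gal3st2, a sulfotransferase gene, had 1.76 and 0.950 CPM in anti-PD-L1 and 0.300 and 0.499 CPM in IgG. Its log2 fold change was 1.76 ± 0.51 (edgeR adjusted p = 0.554), above that of Cd274 (0.89 ± 0.45) and below those of Pdcd1 and Pdcd1lg2. None of these neighbours passed with edgeR or DESeq2.

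**Figure D5:**
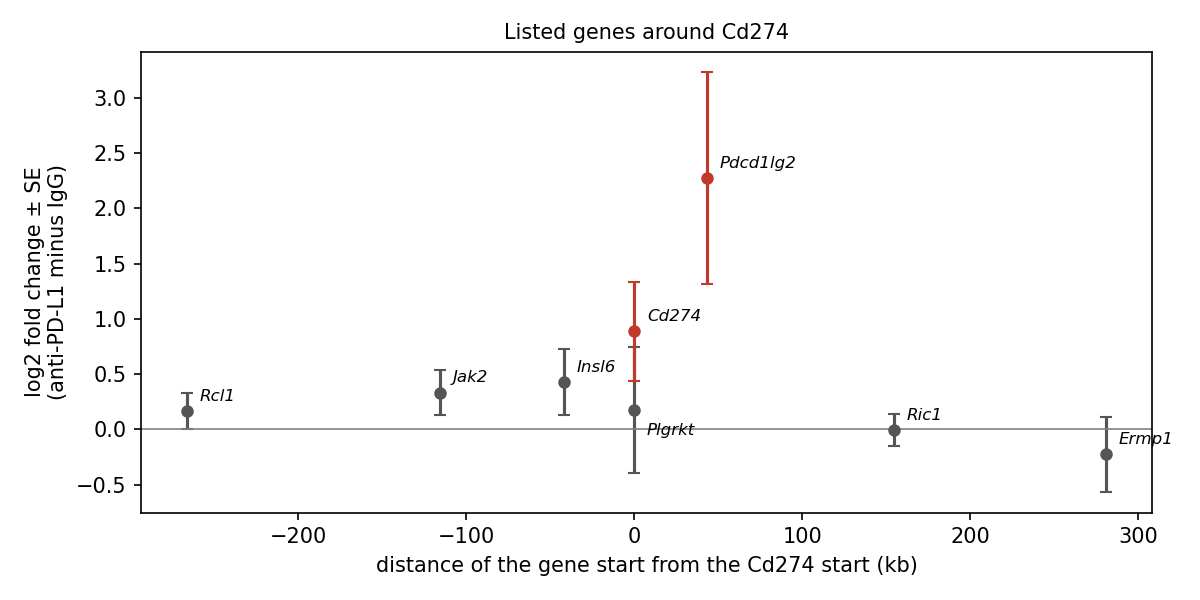
Log2 fold change (anti-PD-L1 minus IgG) ± SE of the listed genes with any part within 250 kb of Cd274, against the distance of each gene start from the Cd274 start in kb. Cd274 (0.89) and Pdcd1lg2 (2.27), in red, have the highest values, and the 6 other genes lie between −0.22 and 0.43.

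The genes whose pattern over the 4 libraries was most like each of the 3 were found by the Euclidean distance between centred log2 CPM values, among 15135 genes with a mean of at least 1 CPM and a settled symbol. For Pdcd1 they were Tgtp2 (distance 0.23), H2-Q7 (0.33), H2-Q9 (0.34), Cxcl10 (0.38) and Nkg7 (0.40). Nkg7, a gene of cytotoxic granules, had 14.1 and 13.1 CPM in anti-PD-L1 and 0.450 and 1.58 CPM in IgG, and Cxcl10, a chemokine gene, 80.9 and 75.7 CPM in anti-PD-L1 and 3.88 and 6.999 CPM in IgG. H2-Q7 and H2-Q9 are near-identical class I genes and Tgtp2 has a near-identical copy, so their separate levels are uncertain. For Pdcd1lg2 the nearest were Cst7 (0.20), Lax1 (0.28), Rac2 (0.30), Lat (0.37) and Bcl2a1d (0.37), each with IgG replicate 1 lowest. Rac2, a GTPase gene of leukocytes, had 70.4 and 58.9 CPM in anti-PD-L1 and 4.49 and 26.5 CPM in IgG.

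For Cd274 the nearest were Klk1 (0.28), Ddx60 (0.34), Ccl6 (0.35), Pmaip1 (0.38) and Rnf180 (0.38), each with IgG replicate 2 lowest. Ddx60, an antiviral helicase gene, had 17.4 and 16.9 CPM in anti-PD-L1 and 11.8 and 6.45 CPM in IgG, and Ccl6, a chemokine gene of myeloid cells, 38.2 and 30.2 CPM in anti-PD-L1 and 19.7 and 11.5 CPM in IgG. Among the 3 genes themselves, Pdcd1 and Pdcd1lg2 were 1.41 apart, and Cd274 was 3.25 from Pdcd1 and 3.32 from Pdcd1lg2. With 4 libraries these distances describe the libraries and carry no test.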

How the data were processed

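Thyroid poly(A) RNA was sequenced as paired-end Illumina reads, per the labels' protocols. The authors deposited expected counts, unnormalized, with 1 row per gene symbol; 3328 genes hold a value that is not whole. BWA and mm10 are named in the submitters' processing notes without a role, and which counting program, annotation, strandedness and low-count filter were used is not given in the sources used here. Every listed gene reached at least 100 counts in 1 library, and 13 blank cells were read as 0.

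Counts were rounded and fitted on the whole table with edgeR 4.0.16 in R 4.3.3: filterByExpr (16217 genes kept), TMM, robust dispersion and a two-sided quasi-likelihood F test of the group term, adjusted over the whole table by Benjamini-Hochberg and called below 0.05. Residual degrees of freedom were 2. SE was obtained from the log2 fold change and the F statistic (its size over the root of F). For values relative to a cell type, the library scale was the geometric mean of its listed genes (0.5 added), with the rest of the fit as before. Exact permutation tests used scipy 1.17.1. DESeq2 1.42.0 and limma 3.58.1 were alternatives, with other scalings, filters, a replicate block and each library left out. The edgeR, DESeq2 and limma voom fits scaled over all genes were tested on simulated counts. The fits scaled by cell type genes were not. Libraries of a group differed by more than counting noise (a chi-square of 1060 per degree of freedom in anti-PD-L1 and 321 in IgG). For the IgG pair, nothing beyond the mouse numbers in the titles shows separate animals. The anti-PD-L1 pair also differed in the sex pattern of Xist and Ddx3y. The p-values of the fits rest on the spread between these libraries, including the spread shared across genes, and not on that of each gene alone.

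Coordinates and exon lengths came from GENCODE release 21 for mouse on GRCm38, the assembly also called mm10 (15873 symbols found once). Genes were named by role, by smallest p within each pathway list (up to 2 further), by nearest pattern and by position within 250 kb. The members and lists were chosen with earlier results of these data known. A few items of the lists are not reported here by name.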

Additional observations from a re-analysis of the deposited data

How the results depend on the processing

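With libraries scaled over all genes, Pdcd1, Cd274 and Pdcd1lg2 kept their direction under every alternative tried, and the only change of call was Pdcd1 with DESeq2 (3.58), which also called 475 genes higher and 53 lower where edgeR called 0 and 0. With each library left out in turn, Pdcd1 ranged from 3.05 to 4.42, Cd274 from 0.41 to 1.59 and Pdcd1lg2 from 1.41 to 4.46. The replicate block gave 3.72 for Pdcd1, 1.00 for Cd274 and 2.69 for Pdcd1lg2, with 0 genes called in either direction; same-numbered libraries share only a number in the labels, and their deviations correlated with r = 0.0998 across genes.

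On the cell type scales, Pdcd1 passed relative to T cell genes with the summed list (1.87, share of all genes called not counted) and with DESeq2 (1.68), and relative to pan-leukocyte genes with DESeq2 (1.70). Cd274 relative to macrophage genes lost its call with the summed list (−0.77), the replicate block (−0.61) and DESeq2 (−0.79). With each library left out in turn, Cd274 ranged from −2.34 to 0.23 relative to T cell genes, from −1.37 to 0.19 relative to macrophage genes and from −2.46 to 0.38 relative to pan-leukocyte genes. The sign turned without IgG replicate 1 in each. Pdcd1 ranged from 1.60 to 1.75 relative to T cell genes, from 1.65 to 2.64 relative to macrophage genes and from 1.56 to 1.84 relative to pan-leukocyte genes. Pdcd1lg2 ranged from 0.050 to 1.73 relative to T cell genes, from 0.014 to 2.69 relative to macrophage genes and from 0.20 to 1.61 relative to pan-leukocyte genes. The causes of these changes were not tested. Leaving out a library leaves a lone library in its group, which is assumed to vary like the other group. On the cell type scales such fits are therefore given as values without calls. Depth limits the Pdcd1lg2 value of IgG replicate 1, at 8 counts.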
